A study of Mus musculus with 6 samples.

Results

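Of 31 genes of cholesterol synthesis, uptake and SREBP control examined in CAD cells, 30 were found by symbol among the 26436 genes of the authors' deposited table. Erg28 is listed there under the older symbol 0610007P14Rik, was found by its gene ID, and is given separately. The members were named for their place in the pathway and ordered along it, and the list does not hold every gene of the pathway. CAD is a mouse cell line that the labels call a catecholaminergic line of the central nervous system; it divides in serum and extends processes once serum is withdrawn. RNA was sequenced from 3 libraries of cells differentiated for 5 days in DMEM/F12 with antibiotics and a supplement of insulin, transferrin and selenium, and from 3 libraries of undifferentiated cells grown in that base medium with antibiotics and fetal bovine serum at 10%. Loss of serum, a source of lipoprotein cholesterol, and gain of the supplement go together with differentiation here and cannot be told apart. A single line was used.

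Cholesterol is built from acetyl-CoA through mevalonate, the isoprenoid farnesyl diphosphate, squalene and lanosterol, and the last stretch removes methyl groups from lanosterol and moves and reduces its double bonds. The pathway is controlled by SREBP-2, a transcription factor made as a membrane protein of the endoplasmic reticulum. When sterols are low, SCAP escorts it to the Golgi, where 2 proteases release the active part; when sterols are high, INSIG proteins hold SCAP back. SREBP binds sterol regulatory elements in promoters, usually beside sites for NF-Y and Sp1. The brain takes up little cholesterol from plasma and makes its own.

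The values are the authors' own comparison: a mean normalized count per gene, a log2 fold change with differentiated cells on top, its standard error (SE) and an adjusted p of the Wald test, and a gene is called at an adjusted p under 0.05. Values of single libraries were not used here, so each gene is described by the implied mean of each group. These were computed from the mean count and the fold change, taking both groups as equally large. Nothing in the labels tells whether libraries of 1 group are separate cultures, and the p-values then measure no more than how far these samples lie apart, which may be technical. In a culture measured in bulk, more transcript per cell and more cells that express a gene cannot be told apart. Of the catecholaminergic markers, Th was listed at a mean of 91.3 and Dbh at 291.3 normalized counts in the authors' deposited table, and the sum of the implied means of 10 such markers was 13812 in differentiated cells and 20290 in undifferentiated cells. Among 10 pan-neuronal markers, Nefl and Nefm had means of 1.22 and 1.60 in the authors' deposited table, while the others reached up to 16488. Summed implied means of the astrocyte, oligodendrocyte, microglia and fibroblast markers were 13.0, 114.4, 2.05 and 97.9 normalized counts in differentiated cells, against 7.42, 79.1, 2.59 and 56.6 in undifferentiated cells. Aqp4, Aldh1l1, Mag, Olig1, Cx3cr1, P2ry12 and C1qa of these lists are not among the genes of that table. The part of these markers in the results was not tested; the lowest member had a mean of 448.4 normalized counts.

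Promoters are shown for 4 members whose fold changes ran in both directions and whose upstream stretch holds no annotated exon, Hmgcs1 and Mvd being called higher and Lbr and Ebp lower. Each is the 250 bases before a RefSeq transcript start in GRCm38.p6, read along the gene's strand, and that of Lbr lies between exons of the longer GENCODE gene. Sc5d, Insig2 and Pmvk were also called higher and have a listed start whose stretch holds no annotated exon, but are not shown. Capitals mark matches to the sterol regulatory element core TCACNCCAC or to the NF-Y motif CCAAT, on either strand.
Hmgcs1, chr13:119690101-119690350, plus strand: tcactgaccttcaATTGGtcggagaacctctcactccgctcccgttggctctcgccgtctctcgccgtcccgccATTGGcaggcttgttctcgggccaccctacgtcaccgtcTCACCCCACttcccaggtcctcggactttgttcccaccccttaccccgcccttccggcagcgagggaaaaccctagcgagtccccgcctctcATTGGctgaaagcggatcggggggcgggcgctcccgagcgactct
Mvd, chr8:122443423-122443672, minus strand: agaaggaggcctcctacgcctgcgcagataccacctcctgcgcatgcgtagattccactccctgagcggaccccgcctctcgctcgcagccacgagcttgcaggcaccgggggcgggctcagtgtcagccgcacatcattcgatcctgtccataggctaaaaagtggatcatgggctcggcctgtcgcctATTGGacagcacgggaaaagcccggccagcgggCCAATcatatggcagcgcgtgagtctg
Lbr, chr1:181842402-181842651, minus strand: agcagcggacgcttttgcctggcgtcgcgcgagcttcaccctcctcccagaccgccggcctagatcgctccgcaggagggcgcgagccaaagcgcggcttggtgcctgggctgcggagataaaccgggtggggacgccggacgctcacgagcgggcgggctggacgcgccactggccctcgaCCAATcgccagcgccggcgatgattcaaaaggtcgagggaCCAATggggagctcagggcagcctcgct
Ebp, chrX:8193513-8193762, minus strand: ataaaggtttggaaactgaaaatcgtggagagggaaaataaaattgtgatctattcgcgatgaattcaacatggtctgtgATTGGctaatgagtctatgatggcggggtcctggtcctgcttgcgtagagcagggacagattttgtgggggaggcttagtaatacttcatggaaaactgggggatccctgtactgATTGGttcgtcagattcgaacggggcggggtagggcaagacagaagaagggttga
All 4 stretches hold CCAAT, whichever way the transcript moved, and the Hmgcs1 stretch also holds the element core, at positions -137 to -129 from the start.

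Transcripts of the pathway were mostly higher in differentiated cells. Of the 30 members, the authors' deposited table called 17 higher, 2 lower and left 11 without a call, against a background of 20285 tested genes of which 35.9% were called, 18.2% higher and 17.7% lower. In percent, 56.7 of the members were called higher and 6.67 lower. Among the 9965 tested genes with a mean at or above that of the lowest member, 20.5% were called higher and 28.9% lower. The median log2 fold change of the members was 0.60, that of all tested genes 0.01. Estimates of at least 2-fold stood at 11 members, of which 9 were called higher, against 6.37% of all tested genes, and 3.32% of the 9965, that were called and at least 2-fold higher. Normalized counts implied for the 20 enzyme genes summed to 112764 in differentiated cells and 61668 in undifferentiated cells, a ratio of 1.83. By the authors' deposited table of KEGG pathway statistics, steroid biosynthesis (18 genes) had a mean set statistic of 2.35 and a q-value of 0.0013 on the side of higher expression, where 61 of 83 listed pathways had a q-value under 0.05. Terpenoid backbone biosynthesis, which holds the mevalonate steps, had 22 genes, a mean set statistic of 1.14 and a q-value of 0.0799 in the authors' deposited table.

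**Figure D1:**
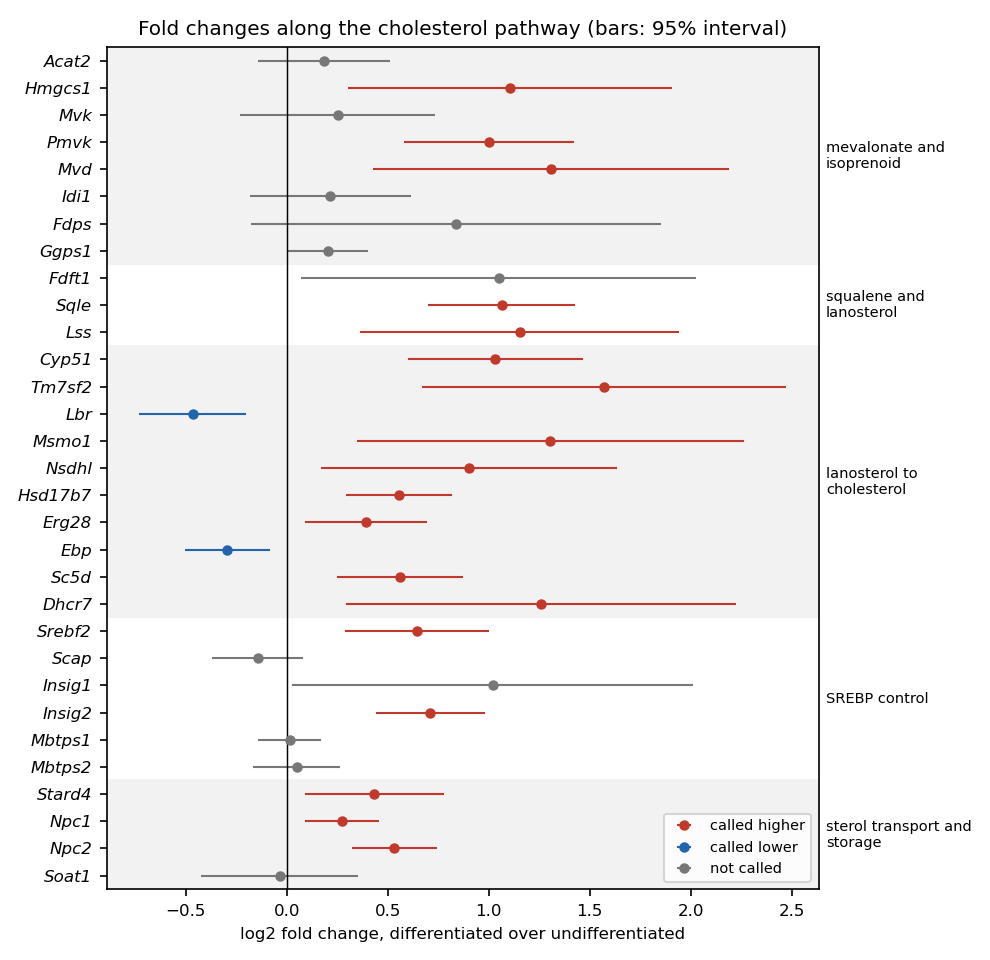
Log2 fold change (differentiated over undifferentiated) of the 30 members and Erg28, in pathway order from top to bottom, with bars for the 95% interval (the authors' SE times the normal quantile) and colours for the call at an adjusted p under 0.05. Most points lie right of 0, Lbr (-0.47) and Ebp (-0.29) are the called members left of it, and the bars of the points beyond 1 differ widely in length.

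The early steps run from acetyl-CoA to farnesyl diphosphate. Of 8 members of the mevalonate and isoprenoid steps, 3 were called higher (37.5%, against 18.2% of all tested genes) and 5 were not called. The median log2 fold change of the 8 was 0.54 in the authors' deposited table. Hmgcs1 (chr13:119690379-119708260, plus strand, GRCm38), the synthase that makes HMG-CoA, had an implied mean of 24245 normalized counts in differentiated cells and 11260 in undifferentiated cells. Its log2 fold change was 1.11 (SE 0.41, adjusted Wald p 0.0222) in the authors' deposited table. It was the member with the highest mean over both groups, although Srebf2 had more implied counts in undifferentiated cells (12702), and it was the highest per length in both, with 5278 normalized counts per kb of exon in differentiated cells and 2451 in undifferentiated cells. Pmvk, which adds the second phosphate to mevalonate, stood at 1935 implied normalized counts in differentiated cells and 967.1 in undifferentiated cells. This was a log2 fold change of 1.00 (SE 0.22, adjusted Wald p 2.77e-05) in the authors' deposited table. Mvd, the decarboxylase that makes isopentenyl diphosphate, had implied means of 2959 in differentiated and 1195 in undifferentiated cells, and a log2 fold change of 1.31 (SE 0.45, adjusted Wald p 0.0127) in the authors' deposited table.

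The other members of these early steps were not called. Acat2, the cytosolic thiolase at the head of the pathway, stood at 0.18 on the log2 scale (SE 0.17) by the authors' deposited table, with a 95% interval for the fold from 0.905 to 1.43. Mvk, mevalonate kinase, stood at 0.25 (SE 0.25) in the authors' deposited table, and at 487.4 implied normalized counts in differentiated cells and 409.4 in undifferentiated cells. Idi1, the isomerase of the isoprenoid units, stood at 0.22 (SE 0.20) in the authors' deposited table. The fold intervals of Mvk and Idi1 reached up to 1.66 and 1.53 and overlapped those of Hmgcs1, Pmvk and Mvd, whose lower ends were 1.24, 1.49 and 1.35; differences between genes were not tested. Ggps1, which diverts farnesyl diphosphate to geranylgeranyl diphosphate for protein prenylation, stood at 0.20 (SE 0.10, adjusted Wald p 0.105) in the authors' deposited table. Fdps, which makes farnesyl diphosphate, had a larger estimate, 0.84, but an SE of 0.52 and an adjusted p of 0.213 in the authors' deposited table, so that its fold interval ran from 0.884 to 3.61.

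The 3 genes that lead from farnesyl diphosphate to lanosterol had closely similar estimates, and 2 were called higher, a count too small to set against a share. Sqle (chr15:59315077-59331192, plus strand), the squalene epoxidase that is a flux-controlling step, had implied means of 13649 normalized counts in differentiated cells and 6533 in undifferentiated cells. Its log2 fold change of 1.06 (SE 0.19) had the lowest Wald adjusted p of all members, 1.59e-07, in the authors' deposited table. Lss, which closes the rings to give lanosterol, had a log2 fold change of 1.15 (SE 0.40, adjusted Wald p 0.0147) in the authors' deposited table. Fdft1, squalene synthase, stood at 1.05 with an SE of 0.50 and was not called (adjusted Wald p 0.0874) in the authors' deposited table. Its estimate differed from that of Sqle by far less than its SE, and the call separated them through the SE. Of the exon bases of Fdft1, 18.3% overlap Ctsb on the opposite strand, and the authors' strand setting is not given in the sources used here. Ctsb itself stood at 0.18 in that table.

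Between lanosterol and cholesterol, all 9 members matched by symbol were called, 7 higher (77.8%, against 18.2% of all tested genes) and 2 lower. The median log2 fold change of the 9 was 0.90 in the authors' deposited table. Tm7sf2 (chr19:6062821-6068373, minus strand), a sterol reductase of the endoplasmic reticulum, had the highest fold change of all members, with implied means of 1578 normalized counts in differentiated cells and 531.5 in undifferentiated cells. Its log2 fold change was 1.57 (SE 0.46, adjusted Wald p 0.00296) in the authors' deposited table, and its fold interval ran from 1.59 to 5.55. Lbr (chr1:181815335-181843046, minus strand), the lamin B receptor, carries the same reductase activity in the inner nuclear membrane and went the other way. It had 3642 implied normalized counts in differentiated cells and 5029 in undifferentiated cells, and its log2 value fell by 0.47 (SE 0.14, adjusted Wald p 0.00265) in the authors' deposited table. The fold intervals of both reductases lie apart, at 1.59 to 5.55 for Tm7sf2 and 0.603 to 0.87 for Lbr; the difference itself was not tested. Of the implied counts per kb of exon of both genes together, Tm7sf2 made up 31.9% in differentiated cells and 10.3% in undifferentiated cells. Tm7sf2 shares 532 exon bases on the same strand with Vps51, which stood at 0.37 in the authors' deposited table, so that some reads may have been lost or assigned to either gene.

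The other called members of this stretch were led by enzymes that remove methyl groups and by the last reductase. Msmo1, the methyl sterol oxidase, had implied means of 9053 normalized counts in differentiated cells and 3666 in undifferentiated cells. Its log2 fold change was 1.30 (SE 0.49, adjusted Wald p 0.0245) in the authors' deposited table. Dhcr7, which makes cholesterol from 7-dehydrocholesterol, had implied means of 8936 in differentiated and 3731 in undifferentiated cells, with a log2 fold change of 1.26 (SE 0.49, adjusted Wald p 0.0319) in the authors' deposited table. Cyp51, the lanosterol demethylase, had a log2 fold change of 1.03 with a much smaller SE of 0.22 (adjusted Wald p 2.43e-05) in the authors' deposited table. Nsdhl, which works with Msmo1 in demethylation, was the called member nearest the threshold, at 0.90 (SE 0.37, adjusted Wald p 0.0453) in the authors' deposited table. Hsd17b7, the ketoreductase of the same step, and Sc5d, the desaturase that makes 7-dehydrocholesterol, each had a log2 fold change of 0.56, with SEs of 0.13 and 0.16, in the authors' deposited table. Erg28, a scaffold for the demethylating enzymes (described in yeast), was called higher at 0.39 (SE 0.15, adjusted Wald p 0.0322) in the authors' deposited table. Ebp, the isomerase between demethylation and the final desaturation, was the other member that fell, and its log2 value decreased by 0.29 (SE 0.11, adjusted Wald p 0.0203), in the authors' deposited table. It had 715.6 implied normalized counts in differentiated cells and 877.1 in undifferentiated cells.

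**Figure D2:**
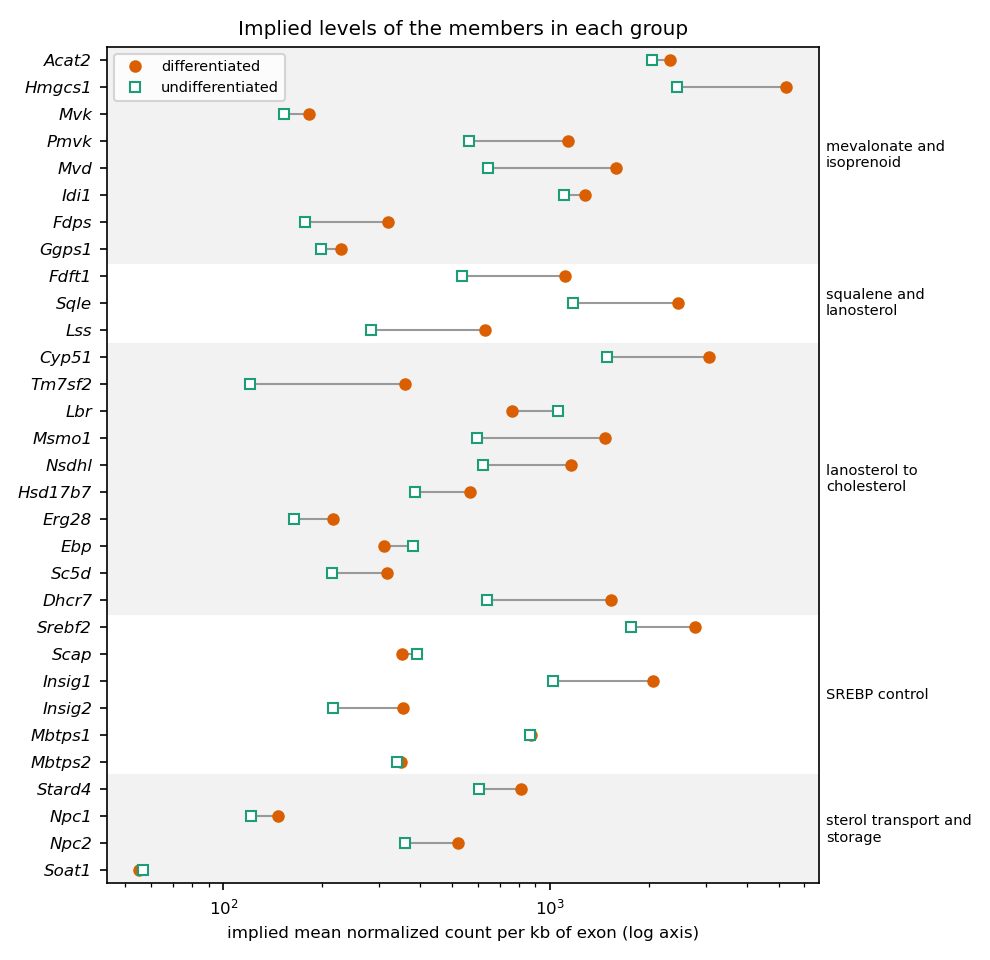
Implied mean normalized count per kb of exon (log axis) of each member in differentiated cells (filled circles) and undifferentiated cells (open squares), joined by a line, in pathway order. Hmgcs1 is highest in both groups, at 5278 in differentiated and 2451 in undifferentiated cells, and Soat1 lowest, at 55.2 in differentiated and 56.6 in undifferentiated cells.

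Levels were set side by side per length. In differentiated cells, Hmgcs1 was followed by Cyp51 at 3062, Srebf2 at 2764 and Sqle at 2461 normalized counts per kb of exon, and in undifferentiated cells the next highest after Hmgcs1 were Acat2 at 2045, Srebf2 at 1768 and Cyp51 at 1497. Among the 20 enzyme genes of synthesis, Mvk was the lowest in differentiated cells, at 182.2 normalized counts per kb of exon, and Tm7sf2 the lowest in undifferentiated cells, at 120.7. These levels rest on the length of all annotated exons of each gene, which is at least as long as any single transcript. Of the exon bases, 26.7% of Fdps and 28.4% of Mbtps2 overlap another gene on the same strand (Gm43738 and Yy2), and 12.1% of Hmgcs1 overlap Gm48342 on the opposite strand, so that reads there may have been split or lost.

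In the authors' deposited table, 2 of the 6 genes of SREBP control were called higher and the other 4 were not called. That is 33.3% higher, against 18.2% of all tested genes and 20.5% at means like those of the members. With 6 genes, this count is too small to read as a difference. Srebf2 (chr15:82147181-82205379, plus strand), which encodes SREBP-2, had implied means of 19858 normalized counts in differentiated cells and 12702 in undifferentiated cells. Its log2 fold change was 0.64 (SE 0.18, adjusted Wald p 0.00192) in the authors' deposited table. Insig2, one of the retention proteins, had implied means of 1230 in differentiated and 751.4 in undifferentiated cells, with a log2 fold change of 0.71 (SE 0.14, adjusted Wald p 2.94e-06) in the authors' deposited table. Insig1 (chr5:28071363-28078662, plus strand), the retention protein whose gene is itself a classic SREBP target, had a larger estimate of 1.02, yet was not called at an SE of 0.51 (adjusted Wald p 0.105) in the authors' deposited table. Its implied means were 6394 normalized counts in differentiated cells and 3155 in undifferentiated cells, and its fold interval ran from 1.02 to 4.03. Insig2 made up 14.6% of the counts per kb of both Insig genes in differentiated cells and 17.5% in undifferentiated cells.

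The escort and the proteases were not called, and their intervals were narrow. Scap, the escort, had 2627 implied normalized counts in differentiated cells and 2904 in undifferentiated cells, with a log2 fold change of -0.14 (SE 0.11, adjusted Wald p 0.351) in the authors' deposited table. Mbtps1, the site-1 protease gene, stood at 9207 implied normalized counts in differentiated cells and 9120 in undifferentiated cells. Its log2 fold change was 0.01 (SE 0.08, adjusted Wald p 0.927) in the authors' deposited table, with a fold interval from 0.907 to 1.12. Mbtps2, the site-2 protease gene, stood at 0.05 (SE 0.11, adjusted Wald p 0.791) in the authors' deposited table, with a fold interval from 0.889 to 1.20. The upper ends for Scap, Mbtps1 and Mbtps2, at 1.06, 1.12 and 1.20, lay below the lower end for Srebf2, 1.22; these differences between genes were not tested.

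Genes that move sterol inside the cell showed smaller increases, with small errors for Npc2 and Npc1. Npc2, the soluble carrier that takes cholesterol from lipoproteins in lysosomes, had implied means of 2829 normalized counts in differentiated cells and 1956 in undifferentiated cells. The log2 fold change was 0.53 (SE 0.11, adjusted Wald p 7.85e-06) in the authors' deposited table. Npc1, the membrane protein that receives this cholesterol, rose by 0.27 log2 units (SE 0.09, adjusted Wald p 0.0135) in the authors' deposited table. Stard4, a cytosolic sterol carrier, also rose, by 0.43 log2 units (SE 0.18, adjusted Wald p 0.0404) in the authors' deposited table. Soat1, which esterifies cholesterol for storage, stood at -0.04 (SE 0.20, adjusted Wald p 0.922) in the authors' deposited table, with 540.6 implied normalized counts in differentiated cells and 554.2 in undifferentiated cells.

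As deposited, the standard errors separated the members into narrow and wide ones. For each member, the SE was divided by the median SE of the 200 tested genes nearest in mean. The median ratio was 1.80, and it was above 1 for 25 of 30 members. There were 10 members with a ratio of at least 3, a bound chosen after the values were seen: Hmgcs1, Mvd, Fdps, Fdft1, Lss, Tm7sf2, Msmo1, Nsdhl, Dhcr7 and Insig1. The members nearest to it were Nsdhl above, at 3.36, and Cyp51 below, at 2.24. Of all 9965 tested genes with a mean at or above that of the lowest member, 133 (1.33%) had a ratio of at least 3, and 0 had one from 2.5 up to 3. DESeq2 by default draws dispersions towards a trend except for genes far above it. The part of that step in this gap, and so in the split of the members, was not tested. The highest ratios among members were those of Dhcr7 (5.04), Msmo1 (4.97), Insig1 (4.95) and Fdft1 (4.66).

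The wide members lie at nearly every stage of the pathway, and their fold changes were alike, from 0.84 to 1.57 on the log2 scale in the authors' deposited table. Their SEs ran from 0.37 to 0.52 in the authors' deposited table, and 7 of the 10 were called. Expressed as a coefficient of variation among libraries of a group, which a negative binomial model would need to give these SEs, they stood at 31.7 to 43.8%. The other 20 members stood at 6.61 to 20.4%, with a median of 12.3%, and the 9965 genes of comparable mean had a median of 9.34%. Where dispersions were drawn towards a trend, these lower values may understate the spread among libraries. Across the 30 members, fold change and SE ratio had Pearson's r of 0.78 and Spearman's rho of 0.80, a description only, since all members come from the same 6 libraries. No such correlation was computed over the other genes, so the pattern cannot be called particular to the members. The highest SE ratios of the 9965 genes were those of Aldoc, Slc16a3 and Nid1. Their log2 fold changes were 2.63, 1.89 and -0.14 in the authors' deposited table. The deposited values do not show in which group, or in which library, the wide members spread. Among members with narrow errors, Sqle, Cyp51 and Pmvk reached log2 fold changes of 1.00 to 1.06 in the authors' deposited table, so that 2-fold estimates were not confined to the wide members. The SE ratios of Sqle, Cyp51 and Pmvk were 1.88, 2.24 and 1.90, and the limit on the lower values holds for these genes too.

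**Figure D3:**
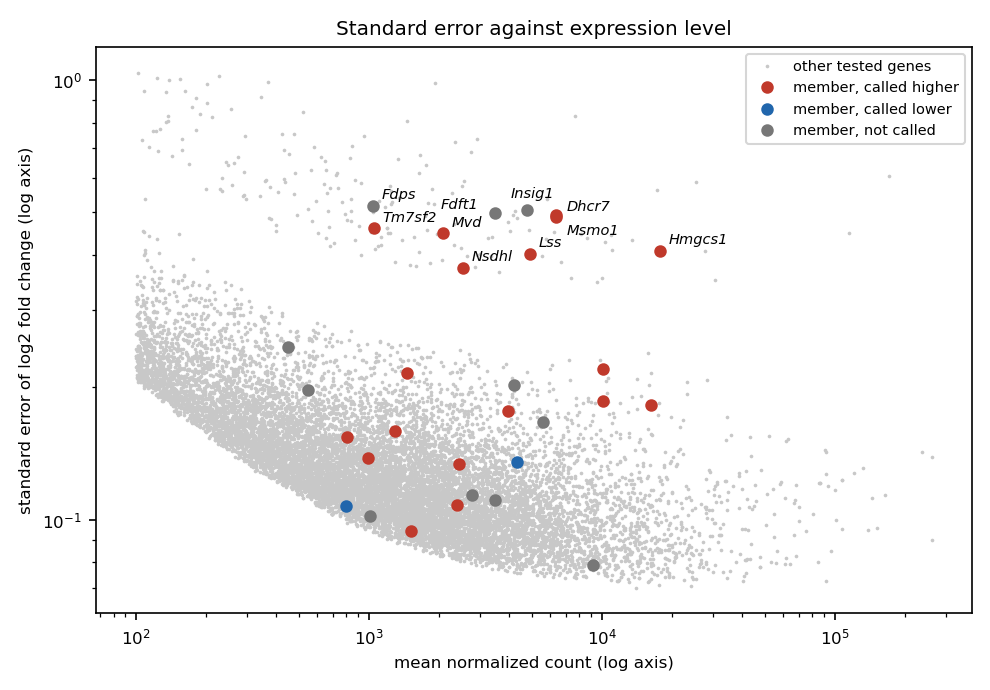
Standard error of the log2 fold change against the mean normalized count (both log axes) for all tested genes with a mean of at least 100 (grey) and the 30 members with Erg28 (coloured by call); names mark the 10 members whose SE is at least 3 times that of genes of equal mean. The named points form a band between 0.37 and 0.52, above the main cloud, at means from 1045 to 17753.

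Other genes tied to the pathway were counted over 6 lists. Of 19 further SREBP targets and partners, all tested, 7 were called higher (36.8%) and 2 lower in the authors' deposited table. Of all tested genes, 18.2% were called higher and 17.7% lower. This list had a median log2 fold change of 0.55 and a median SE ratio of 1.56. The largest called changes were those of Scd1 and Scd2, which desaturate fatty acids, at 1.66 (SE 0.58) and 1.29 (SE 0.45), Acss2, which makes acetyl-CoA from acetate, at 1.65 (SE 0.41), and Fads1, a fatty acid desaturase, at 0.93 (SE 0.21), in the authors' deposited table. Srebf1, which encodes the SREBP-1 forms, rose by 0.88 log2 units (SE 0.20, adjusted Wald p 0.000107) in the authors' deposited table. The 2 lower genes encode NF-Y subunits, Nfyc at -0.82 (SE 0.13) and Nfyb at -0.37 (SE 0.09), while the authors' deposited table gave no call to Nfya (-0.10, SE 0.09) and Sp1 (-0.04, SE 0.08). Fasn and Acaca, the synthase and carboxylase of fatty acid synthesis, also had no call, at 0.21 (SE 0.16) and -0.19 (SE 0.12) in the authors' deposited table. Scd1, Scd2 and Acss2 had SE ratios of 6.25, 4.52 and 3.63, in the range of the wide members or above it.

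The other 5 lists are read against the background of all tested genes, 18.2% called higher and 17.7% lower, or 20.5% and 28.9% at means like those of the members. Of 16 genes that use isoprenoids outside sterol synthesis, 2 were called higher and 3 lower (12.5% higher, median log2 fold change 0.04) in the authors' deposited table, near that background. Pdss1, which builds the tail of coenzyme Q, and Zmpste24, a protease that trims prenylated proteins, fell most, with log2 fold changes of -0.94 (SE 0.15) and -0.55 (SE 0.12) in the authors' deposited table. Of 15 genes of the sterol-regulated degradation of pathway enzymes, 5 were called higher and 4 lower (33.3% higher, median 0.08) in the authors' deposited table, the lower ones near the background share. Among those called higher in the authors' deposited table were the membrane ubiquitin ligases Syvn1 (0.48, SE 0.11) and Marchf6 (0.30, SE 0.11), with Erlin2 (0.49, SE 0.10) and Tmub1 (0.59, SE 0.16). Lower were Ube2g2 (-0.36, SE 0.12), a conjugating enzyme, and Vcp (-0.20, SE 0.08), Ufd1 (-0.35, SE 0.12) and Nploc4 (-0.32, SE 0.09), which form the extracting complex, in the authors' deposited table.

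Of 20 tested genes of intracellular sterol transfer, 6 were called higher and 2 lower (30.0% higher, against 18.2% of all tested genes, median 0.13) in the authors' deposited table. Gramd1b and Gramd1a, which carry cholesterol from the plasma membrane to the endoplasmic reticulum, rose by 0.82 (SE 0.10) and 0.61 (SE 0.14) on the log2 scale, and Osbpl3, an oxysterol-binding protein relative, fell, at -0.73 (SE 0.16) on that scale, per the authors' deposited table. Of 11 tested lipoprotein receptor and lysosomal lipase genes, 4 were called higher and 1 lower (36.4% higher, median 0.13), led by the HDL receptor gene Scarb1 at 0.77 (SE 0.10) in the authors' deposited table. The authors' deposited table listed Lipa, the lysosomal lipase gene, at a mean of 43.5 normalized counts with no call. Of 5 tested oxysterol and bile acid hydroxylase genes, 2 were called higher in the authors' deposited table, a count too small to set against a share. Only Ephx1 among the 5 had a mean of at least 100 (log2 fold change 1.01, SE 0.39), and the other called gene, Cyp7b1, had a mean of 2.80, too low to size its fold.

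**Figure D4:**
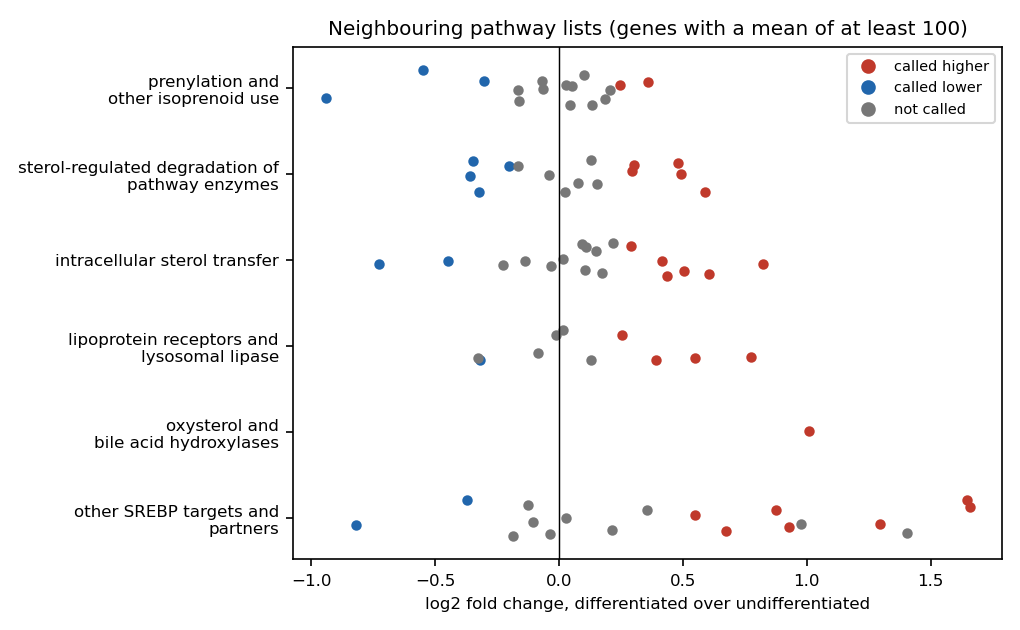
Log2 fold change (differentiated over undifferentiated) of the tested genes whose mean is at least 100 in 6 lists around the pathway, each point a gene, coloured by call and spread vertically at random. Further SREBP targets reach 1.66 (Scd1), whereas genes that use isoprenoids otherwise lie around 0, down to -0.94 (Pdss1).

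Promoter letters were compared over the 25 members with an entry in the RefSeq table of GRCm38.p6; Fdps, Fdft1, Sqle, Stard4 and Npc1 had none. In the 250 bases upstream, on either strand, the NF-Y motif CCAAT was found in 21 of 25 members, in 37.5% of all 27025 genes of the table, and in 41.3% of the 6614 genes with a mean at or above that of the lowest member. Of these 25, all 14 called higher and 7 of the 11 others held it. The Sp1 motif GGGCGG was found in 21 of 25 members, in 35.4% of all genes of the table and in 68.8% of those 6614 genes. The element core TCACNCCAC was found in 1 of 25 members, Hmgcs1, and in 1.29% of those genes. The longer SRE-1 form was found in 0 of 25 members and in 22 of 27025 genes, and the E-box form TCACGTGA was found in 0 of 25 members and in 2.06% of those genes. A gene with several listed starts was counted if any of them held the motif, and no overlap between motifs was removed. Only exact matches were counted, with N as any letter, and forms of the element that differ from these letters were not searched. A match describes letters only, and no binding was measured.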

How the data were processed

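Per the submitters' processing notes, the authors used FastQC 0.11.5, Trimmomatic 0.36, STAR 2.5.1a and DESeq2 on GRCm38.p6, from stranded single-end reads of 50 bp. Not given in the sources used here are the read counter, its strand setting and how multiply mapping reads were treated. Per the file headers, the deposited signal is a mean normalized count, the log2 fold change and its SE are log2 values, the score is the Wald statistic, and the p-value and adjusted p-value are the authors' (Benjamini-Hochberg). The deposited KEGG sheet gives other set statistics by the authors; 3 further blocks of set statistics carry names that are in no label but whose numbers coincide with those of the differentiated samples, so they may belong to single libraries, and they were not used. Library depth was not analysed here.

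The authors' Wald test stood as the test, as the plan allowed for a table without counts. Intervals (95%), implied means, SE ratios and implied dispersions were computed here in Python 3.11.15. The calls and the trend removal were tested on simulated data. The steps behind the implied means, SE ratios and implied dispersions were checked on constructed values with known answers. The intervals were not tested, and unequal size factors or dispersions drawn towards a trend were not simulated. Implied dispersions assume 3 libraries a group with equal size factors; DESeq2 by default draws dispersions towards a trend except for genes far above it, and whether defaults were kept is not given. Positions and exon lengths are from GENCODE M21 (GRCm38). The members and lists were chosen with earlier results of these data known. Every member is named; in other lists, up to 4 called genes with the largest change and a mean of at least 100 are named, and further genes were chosen after their values were seen; some genes of the lists are not reported here by name. No set test was run.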

Additional observations from a re-analysis of the deposited data

How the results depend on the processing

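With an adjusted p under 0.01, 9 members were called higher and 1 lower, 10 in all, and 15 genes of the neighbouring lists were called higher in place of 25. Of all 20285 tested genes, 13.5% were called higher at that threshold. Calls lost at that threshold were those of Hmgcs1, Mvd, Lss, Msmo1, Nsdhl, Ebp, Dhcr7, Stard4 and Npc1. With no filter on low means, Nsdhl (adjusted p 0.059) and Stard4 (0.0526) were also lost, leaving 15 members called higher; over the alternatives the adjusted p of Nsdhl ran from 0.0341 to 0.059 and that of Stard4 from 0.013 to 0.0526. Tested among genes of a minimum mean of 10 or 100, centred on the median gene or on the implied group totals, or with the mean expression trend removed, 17 members were called higher and 2 lower. No called member changed direction in any of the 7 alternatives that could be run; with the trend removed, the log2 fold changes of Soat1 (0.0029) and Sp1 (0.11), both without a call, lay above 0. The centring shifts were -0.03 and -0.02 on the log2 scale. With these and in the main setting, the members' median log2 fold change lay between 0.60 and 0.63. That median is not given here with the mean expression trend removed. The members' median SE ratio lay between 1.75 and 1.81 with other sets of comparison genes. No paired analysis was possible because values of single libraries were not used. The sample numbers run in step (5, 15 and 25 in differentiated cells, 1, 11 and 21 in undifferentiated cells), and the labels do not say whether they mark shared sets. Leaving out single libraries was not run either, for want of the same values.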
